A study of Mus musculus with 9 samples.

Results

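The 86 genes described here are nuclear genes of the oxidative phosphorylation machinery. They were chosen from the 14444 genes measured by symbol alone: Nduf for complex I (44 genes), Sdha to Sdhd for complex II (4), Uqcr for complex III (8), Cox4 to Cox8 for complex IV (13) and Atp5 for complex V (17), without pseudogene symbols. Of these, 76 are subunits and 10 are other factors, namely 7 complex I assembly factors (Ndufaf genes), the supercomplex factor Cox7a2l, and Atp5s and Atp5sl. A filter on low deposited values (1 or more in 3 or more libraries) kept all 86.

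The tissue was prefrontal cortex from mice between postnatal weeks 5 and 8, from which total RNA was sequenced. There were 3 libraries each for wild type with saline, Shank3-deficient with saline, and Shank3-deficient with UNC0642, an inhibitor of the histone methyltransferases EHMT1 and EHMT2, at 1 mg/kg into the peritoneum once a day for 3 days. Shank3 encodes a scaffold of excitatory synapses; the labels write the genotype as SHANK3 and name no allele, and the 2 mutant groups share it. Since the labels do not tie libraries to separate animals, p-values here reflect only how far libraries of a group differ, in part perhaps for technical reasons. For the deposited values that spread also holds the adjustment described below.

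Complexes I and II take electrons from NADH and from succinate and pass them to coenzyme Q, complex III passes them on to cytochrome c, and complex IV hands them to oxygen. Complexes I, III and IV pump protons across the inner mitochondrial membrane, and complex V, the ATP synthase, uses the return flow of protons to make ATP. Neurons depend heavily on this pathway for the ion pumping that follows synaptic activity. Complexes I, III, IV and V also hold subunits encoded by mitochondrial DNA, and those 13 protein genes were not analysed here. Nuclear subunits with other symbols, such as cytochrome c1 (Cyc1) of complex III, fall outside the symbol rule, and Cyc1 is counted below with the electron carriers.

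Nuclear genes of this pathway are known to be driven by factors such as NRF1, GABPA (an ETS factor) and YY1, and 2 promoters with such motifs are shown to place the genes in the genome. RefSeq windows of 250 bases before to 50 after the start (GRCm38.p6) were matched by symbol for 71 of the 86 genes. On either strand, GCGCATGC (NRF1) was found in 12 of the 71 genes (16.9%) and in 2.71% of all 32851 windows, CCGGAAG (GABPA) in 17 genes (23.9%) and 8.86% of windows, and AAGATGGC (YY1) in 11 genes (15.5%) and 2.75% of windows. YY1 matches fell in complex I (7 genes) and complex V (4 genes), and in none of the 17 genes of the other complexes that had a window. Matches can overlap: the end of CCGGAAG and the start of AAGATGGC share letters, and 2 NRF1 matches can overlap because the motif is nearly its own reverse complement. Below, the 250 bases before the start are written 5′ to 3′ on the gene's strand, with motif matches in capitals. Of the members with a match in these 250 bases, Cox6a1 has the highest wild-type level for NRF1 and for GABPA, and Atp5j for YY1. In Cox6a1 2 overlapping NRF1 matches begin 162 and 160 bases before the start, and a GABPA match on the other strand begins 16 bases before it. In Atp5j a YY1 match begins 88 bases before the start and a GABPA match 61 bases before it. A match is a string of letters, not a shown binding site.
Cox6a1, chr5:115348959-115349208, minus strand: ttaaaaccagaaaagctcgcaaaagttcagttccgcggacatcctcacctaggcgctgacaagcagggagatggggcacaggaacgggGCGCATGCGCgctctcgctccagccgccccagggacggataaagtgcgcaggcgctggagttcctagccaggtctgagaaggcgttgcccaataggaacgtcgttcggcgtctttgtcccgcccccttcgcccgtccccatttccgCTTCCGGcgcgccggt
Atp5j, chr16:84834977-84835226, minus strand: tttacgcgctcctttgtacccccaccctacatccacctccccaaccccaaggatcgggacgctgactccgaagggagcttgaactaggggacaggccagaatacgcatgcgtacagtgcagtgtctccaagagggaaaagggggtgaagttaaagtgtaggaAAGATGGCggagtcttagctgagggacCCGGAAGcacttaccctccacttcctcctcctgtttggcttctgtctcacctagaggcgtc

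The values of these genes have to be read with a property of the whole table. In each gene, 5 of the deposited log2 values (wild type 1 to 3, UNC0642 2 and 3) average to the same number as the other 4 (saline mutant 1 to 3, UNC0642 1), to within 2.5e-09. Under such an adjustment a log2 change of 1 shared by both mutant groups shows as 0.40 between saline mutants and wild type, as 0.40 between UNC0642 and saline mutants, and as 0.80 between UNC0642 mutants and wild type. It also sets UNC0642 replicate 1 apart from replicates 2 and 3, and so enters the spread behind the p-values of the deposited values. A lack of calls there does not show that levels are alike. Whole reads behind the values were recovered for 14444 of 14444 genes and came to between 12035098 and 16165483 per library; below, recovered levels are given in RPM, the usual read unit scaled to a library's total. In the recovered reads the libraries divide into 4, the wild-type libraries with UNC0642 replicate 3, and 5, namely the other UNC0642 libraries with those of the saline mutants. This division was read from the recovered values and is not in the labels. Some genes outside the members switch almost fully along it. Mrgpra6 had 2299, 3100 and 3895 reads in wild type and 3749 in UNC0642 replicate 3, and 0 in each of the other 5 libraries. Eno1b went the other way, with 0 to 2 reads in those 4 libraries and 706 to 962 in the 5. What the division stems from was not tested. Genotype and this division can be told apart only through UNC0642 replicate 3. Shank3 itself had 3552 to 4443 recovered reads in wild type and 4230 to 5307 in saline mutants, a log2 difference of 0.071 (SE 0.081, adjusted p = 0.57) by limma-voom; without the allele, reads over the whole gene do not check the label.

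In wild-type cortex the genes spanned a wide range of levels, given here as recovered RPM per kilobase of transcript (mean ± SD, n = 3). The subunit medians were 75.8 for complex I, 77.4 for complex II, 133.6 for complex III, 177.7 for complex IV and 193.1 for complex V. The highest levels were those of Cox8a, a small structural subunit of complex IV (657 ± 31.7), and Atp5b, the catalytic beta subunit of the ATP synthase (523 ± 40.4). Next came Cox4i1, the regulatory subunit that binds ATP (465 ± 28.1), Cox6a1 (437 ± 24.8) and Ndufa4 (382 ± 8.73). Cox4i1 and Cox6a1 were neighbours in this order that differed by about their spread. Ndufa4 is counted with complex I by its symbol and is known as a subunit of complex IV.

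**Figure D1:**
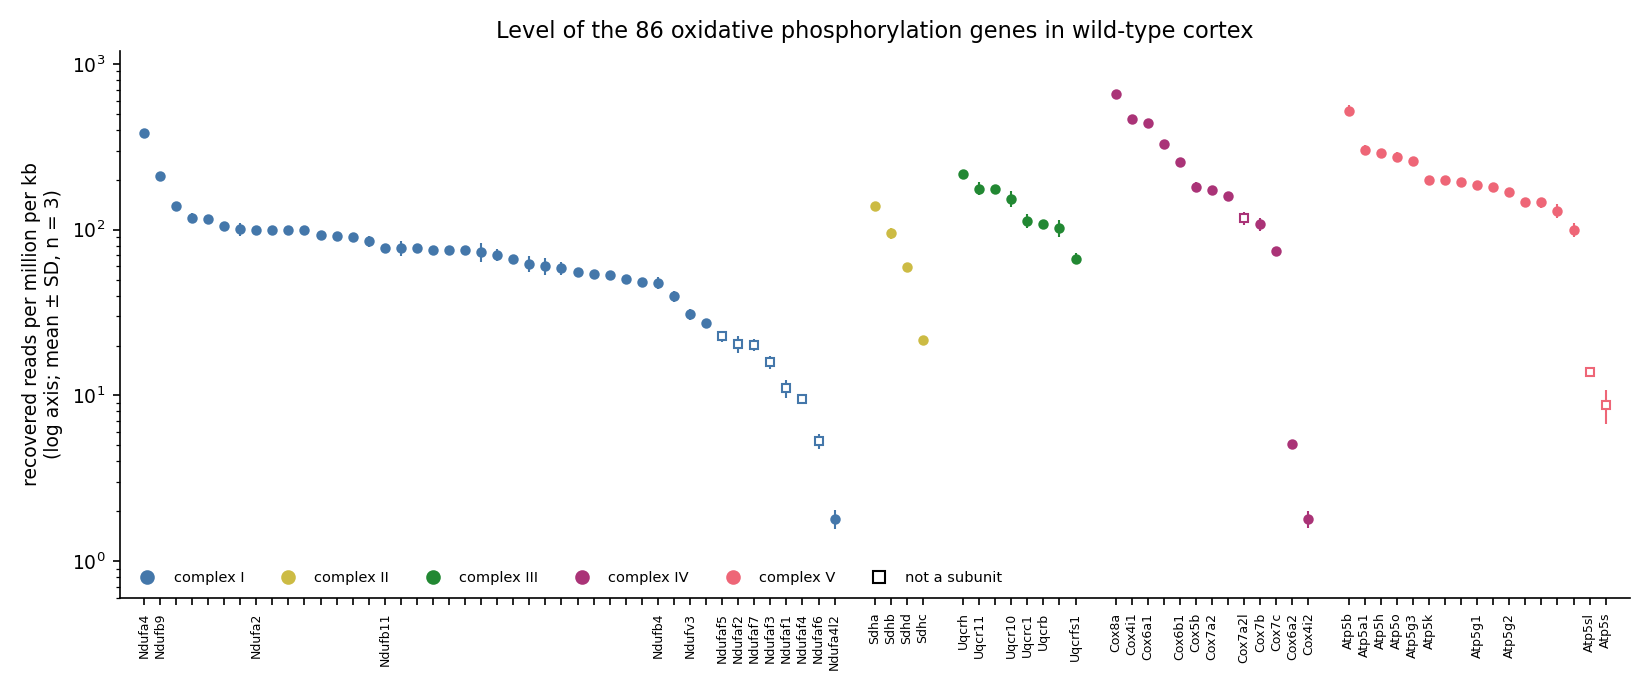
Level of each of the 86 genes in wild-type cortex, in recovered RPM per kilobase of transcript on a log axis, as mean ± SD of 3 libraries; genes are ordered by level within each complex, open squares are not subunits, and some of the genes are labelled. Complex IV holds both the highest member (Cox8a) and 1 of the lowest (Cox4i2), and the assembly factors lie below all complex I subunits except Ndufa4l2.

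Within complex I the catalytic core subunits Ndufv1 (77.4 ± 7.93) and Ndufs1 (48.6 ± 2.06), which carry out electron transfer, lay below the accessory subunit Ndufb9 (211 ± 6.92), the highest after Ndufa4. The 7 assembly factors, which help build complex I and are not part of it, ran from 5.30 for Ndufaf6 to 22.7 for Ndufaf5. In complex II, Sdha, the flavoprotein that oxidises succinate, was highest (139 ± 2.60), followed by the iron-sulphur subunit Sdhb (95.3 ± 7.54) and the membrane anchors Sdhd (59.4 ± 3.43) and Sdhc (21.7 ± 0.601). In complex III the hinge protein Uqcrh was highest (218 ± 11.5) and the Rieske protein Uqcrfs1 lowest (67.0 ± 5.06). Lengths are of 1 principal transcript a gene, and a gene with another main transcript would shift in this order.

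Several subunits exist as tissue isoforms, and their levels per kilobase were set against each other within each family. Cox4i1 made up 99.6% ± 0.0469 (SD, n = 3) of the Cox4i pair in wild type, leaving 0.383% ± 0.0469 to Cox4i2, the isoform known from lung and from low oxygen. Cox6a1 made up 98.8% ± 0.0356 and Cox6a2, the heart and muscle isoform, 1.16% ± 0.0356. Ndufa4l2, a paralog known to be induced in low oxygen, took 0.469% ± 0.067 of the Ndufa4 pair. The muscle or testis isoforms Cox6b2, Cox7a1, Cox8b and Cox8c were not analysed here. The 3 genes for the c-ring of the ATP synthase, which encode the same mature protein behind different import signals, were more even: Atp5g3 took 42.3% ± 0.537, Atp5g1 30.3% ± 1.03 and Atp5g2 27.4% ± 1.41. Over all 9 libraries Atp5g3 stayed between 41.2% and 43.9% of the family. The ranges of the 3 groups overlapped for Atp5g1 and Atp5g2, while for Atp5g3 the UNC0642 libraries (42.9% to 43.9%) lay just above the wild-type libraries (41.7% to 42.8%).

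The first question was whether these genes differ between Shank3-deficient and wild-type cortex under saline. In the deposited values no difference passed the test: limma called 0 of 86 members and 0% of 14444 genes at an adjusted p under 0.05. At an unadjusted p under 0.05 the count was 0 members, with 0.132% of all genes. The estimates leaned one way, positive in 74 of 86 members, and their median log2 difference was 0.046 beside 0.003 for all genes. By complex the medians were 0.032 (I), 0.054 (II), 0.058 (III), 0.049 (IV) and 0.039 (V), smaller than the SD of 0.091 between replicates of a library's median over the members. In 3 of 86 members, Ndufa2, Cox7c and Atp5k, all saline mutant values lay above all wild-type values, beside 1.73% of all genes, and in 0 members all lay below, beside 1.7%. Atp5k encodes the e subunit of the ATP synthase membrane part: its deposited values were 84.9, 79.0 and 81.6 in wild type, 86.1, 85.6 and 86.3 in saline mutants and 86.1, 96.6 and 89.0 in UNC0642 mutants, a narrow gap on this scale.

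The recovered reads gave larger differences in the same direction. Summed over the 86 members, the recovered level was 10074, 9636 and 9408 RPM in the wild-type libraries, 11896, 11374 and 11998 in the saline mutants and 11975, 11698 and 9766 in the UNC0642 mutants. Saline mutants lay above wild type without overlap, and the third UNC0642 library lay within the wild-type range while the other two lay with the saline mutants. Limma-voom without a term for the division gave 82 of 86 positive differences with a median of 0.260, beside -0.012 for all genes, and called 25 members higher and 0 lower, beside 5.13% of all genes higher and 6.81% lower. All 3 saline mutant libraries lay above all 3 wild-type libraries for 62 of 86 members, beside 20.2% of all genes, and below for 1 member, beside 20.5%. The count depended on which libraries were used: of the members, 54 were called without UNC0642 replicate 3 (53 higher and 1 lower), 31 without UNC0642 replicate 1, 24 without UNC0642 replicate 2 (23 higher and 1 lower), 24 without wild-type replicate 1, 1 without wild-type replicate 3, and 0 without wild-type replicate 2 or any 1 of the 3 saline mutant libraries, while the median stayed between 0.251 and 0.297. When the division entered as a term, the median was -0.002, and limma-voom called 0 members and 0% of all genes, with 0 members and 4.92% of all genes at an unadjusted p under 0.05. That estimate rests on UNC0642 replicate 3 alone. In it the difference was 0.022 (SE 0.16, adjusted p = 1) for Ndufb4, -0.058 (SE 0.13, adjusted p = 0.99) for Cox7c and 0.042 (SE 0.10, adjusted p = 0.99) for Sdha.

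**Figure D2:**
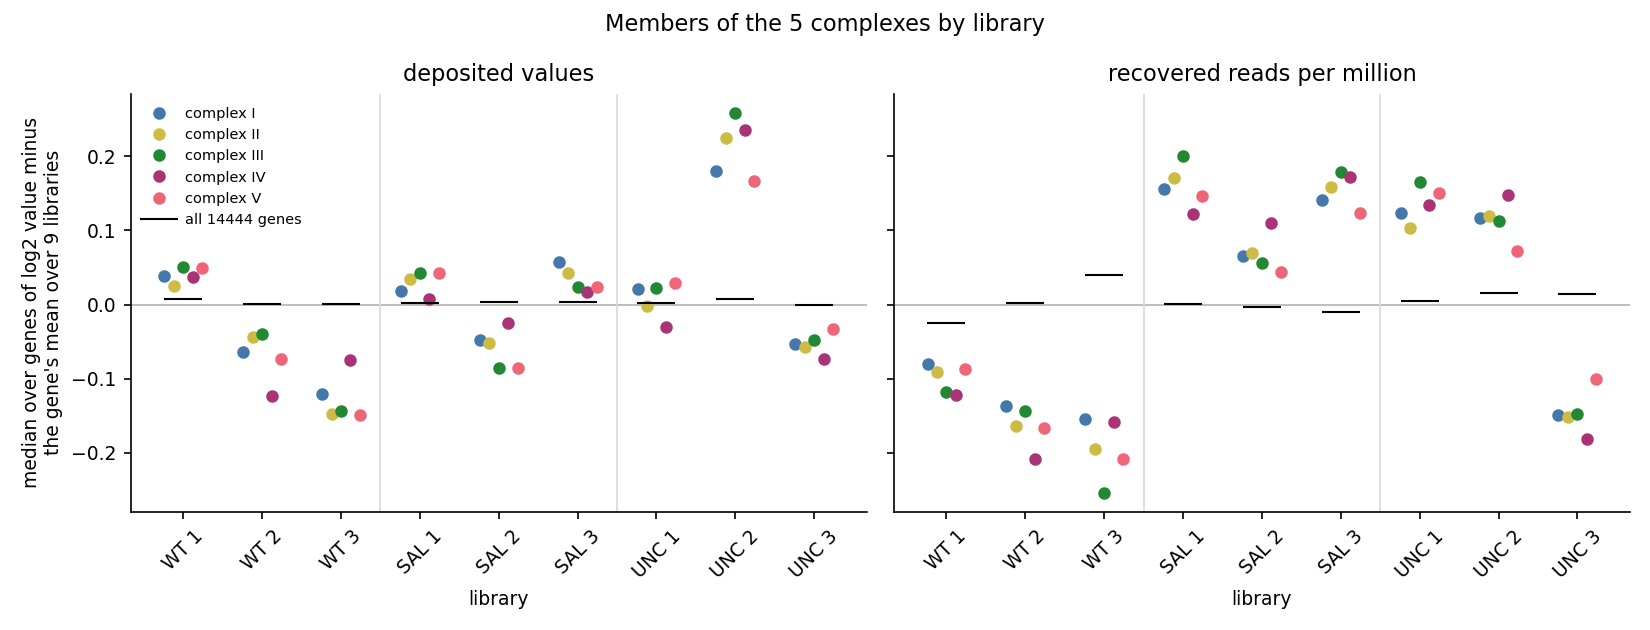
For each library, the median over the genes of a complex of the log2 value minus the gene's own mean over the 9 libraries, in deposited values (left) and recovered RPM (right); black bars give the same for all 14444 genes. In the deposited values UNC0642 replicate 2 stands highest for all 5 complexes, and in the recovered reads the wild-type libraries and UNC0642 replicate 3 lie below 0 and the other 5 libraries above 0 for all 5 complexes.

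The division was read from these same recovered reads, so the counts by member describe it and do not test it. For 59 of the 86 members, all 5 libraries of the larger set lay above all 4 of the smaller one, beside 14.3% of all genes, and for 1 member, the assembly factor Ndufaf4, they lay below, beside 13.8%. The 59 were 27 of 44 members of complex I, 3 of 4 of complex II, 8 of 8 of complex III, 10 of 13 of complex IV and 11 of 17 of complex V. The shares of the 5 complexes in the members' reads moved little by comparison. Complex I took 28.3% to 28.9% of the members' reads over the 9 libraries, complex III 8.64% to 9.31%, complex IV 19.28% to 21.02% and complex V 34.9% to 36.0%. Complex II took 6.74% ± 0.0797 in wild type, 6.34% ± 0.166 in saline mutants and 6.62% ± 0.342 in UNC0642 mutants (SD, n = 3), with no overlap between wild type (6.66% to 6.82%) and saline mutants (6.16% to 6.49%). Complex III did not overlap either, with 8.64% to 9.08% in wild type and 9.14% to 9.31% in saline mutants, and complex I was barely separated, with 28.673% at the lowest in wild type and 28.671% at the highest in saline mutants. The shares of complexes IV and V overlapped.

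In complex I, 10 of 44 members were called higher in saline mutants in the recovered reads, beside 5.13% of all genes. All of them were subunits: Ndufa13, Ndufa2, Ndufa6, Ndufa7, Ndufb11, Ndufb3, Ndufb4, Ndufs3, Ndufs8 and Ndufv1. Ndufs8, a core subunit that carries iron-sulphur clusters, had recovered levels, in RPM, of 53.2, 51.3 and 50.6 in wild type, 77.5, 74.7 and 74.3 in saline mutants and 75.0, 71.4 and 51.4 in UNC0642 mutants. All saline mutant libraries and the first 2 UNC0642 libraries lay above every wild-type library, and the third UNC0642 library lay among them; its saline mutant to wild type log2 difference was 0.55 (SE 0.12, adjusted p = 0.023). Ndufb4, an accessory subunit of the membrane arm, had the largest difference in complex I at 0.56 (SE 0.14, adjusted p = 0.029), with levels of 48.9, 48.4 and 41.9 in wild type, 68.2, 62.4 and 75.4 in saline mutants and 74.9, 74.0 and 51.1 in UNC0642 mutants. Ndufb11, also of the membrane arm, had levels of 70.7, 71.8 and 69.1 in wild type, 104, 97.0 and 106 in saline mutants and 107, 95.9 and 77.1 in UNC0642 mutants and a log2 difference of 0.54 (SE 0.11, adjusted p = 0.02). Ndufv1, which binds NADH, differed by 0.41 (SE 0.11, adjusted p = 0.036), and Ndufs1, the largest core subunit, by 0.18 (SE 0.081, adjusted p = 0.14), which missed the threshold. At the other end, Ndufa8 (0.039, SE 0.077, adjusted p = 0.75) and Ndufab1, the acyl carrier protein (-0.083, SE 0.10, adjusted p = 0.58), had estimates smaller than their error, and Ndufc1 (-0.0049, SE 0.11, adjusted p = 0.98) did too.

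Of the 7 complex I assembly factors, limma and limma-voom called 0 in any comparison; at an unadjusted p under 0.05 there were 2 in recovered reads between saline mutants and wild type, Ndufaf3 and Ndufaf4, beside 32.3% of all genes. Their median difference between saline mutants and wild type in recovered reads was 0.113, beside 0.253 for the 37 complex I subunits. Ndufaf4 went against the rest: its recovered levels, in RPM, were 32.5, 37.2 and 34.4 in wild type, 26.3, 23.8 and 28.5 in saline mutants and 25.7, 23.2 and 32.1 in UNC0642 mutants. Saline mutants lay below wild type in every library, and the log2 difference of -0.41 (SE 0.13, adjusted p = 0.051) missed the threshold. Ndufaf3, another early assembly factor, had levels of 25.9, 21.8 and 23.4 in wild type, 36.5, 27.2 and 33.9 in saline mutants and 32.1, 35.7 and 25.9 in UNC0642 mutants, and a log2 difference of 0.45 (SE 0.15, adjusted p = 0.063).

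Complex II is the only complex made wholly of nuclear-encoded subunits, and its 4 genes were not alike. Sdha had recovered levels, in RPM, of 409, 407 and 395 in wild type, 407, 445 and 444 in saline mutants and 447, 457 and 435 in UNC0642 mutants, so that saline mutant and wild-type ranges overlapped and the log2 difference was 0.10 (SE 0.067, adjusted p = 0.32). All 3 UNC0642 libraries, the third included, lay above the wild-type libraries for Sdha. Its partner Sdhb had 117, 109 and 99.96 in wild type, 146, 124 and 140.1 in saline mutants and 135, 138 and 105 in UNC0642 mutants, a log2 difference of 0.33 (SE 0.11, adjusted p = 0.065). Sdhd, a membrane anchor, differed by 0.34 (SE 0.11, adjusted p = 0.055) and the other anchor, Sdhc, by 0.28 (SE 0.081, adjusted p = 0.041), the only member of the complex that passed the threshold.

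In complex III all 8 genes had higher recovered levels in saline mutants, with a median log2 difference of 0.319. Of these 3 were called higher, beside 5.13% of all genes: Uqcr10, Uqcr11 and Uqcrq, all small accessory subunits. Uqcr11 had levels, in RPM, of 85.5, 71.5 and 79.2 in wild type, 113, 109 and 101 in saline mutants and 97.3, 95.5 and 76.9 in UNC0642 mutants and a log2 difference of 0.45 (SE 0.10, adjusted p = 0.023). Uqcrq, the ubiquinone-binding subunit, had 71.4, 70.9 and 70.9 in wild type, 100.5, 92.5 and 98.2 in saline mutants and 100.2, 90.6 and 69.8 in UNC0642 mutants, with a spread of 0.297 (SD, n = 3) in wild type and a log2 difference of 0.45 (SE 0.11, adjusted p = 0.03). Every saline mutant library of both genes was above every wild-type library, and UNC0642 replicate 3 was within or below the wild-type range. The core protein Uqcrc1 (0.31, SE 0.10, adjusted p = 0.054) and the Rieske protein Uqcrfs1 (0.31, SE 0.10, adjusted p = 0.06) missed the threshold.

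In complex IV, 5 of 13 members were called higher, beside 5.13% of all genes: Cox4i1, Cox6b1, Cox6c, Cox7c and Cox8a. Cox8a, the member highest per kilobase, had recovered levels, in RPM, of 368, 342 and 375 in wild type, 502, 474 and 481 in saline mutants and 461, 472 and 344 in UNC0642 mutants and a log2 difference of 0.43 (SE 0.10, adjusted p = 0.027). Cox4i1 had 368, 326 and 346 in wild type, 416, 419 and 441 in saline mutants and 409.7, 408 and 359.8 in UNC0642 mutants and differed by 0.30 (SE 0.076, adjusted p = 0.031). Cox7c stood apart from all other members, with 487, 522 and 496 recovered reads in wild type, 1307, 1662 and 1466 in saline mutants and 1259, 1594 and 555 in UNC0642 mutants. The 5 libraries of the larger set were on average 2.65 times as high as the 4 of the smaller set, while the next largest such ratio among called members was 1.49, for Ndufb4, and the low isoform Cox6a2, which was not called, had 1.72. Within a group the spread was small: the wild-type level was 39.9 ± 0.561 and the saline mutant level 105 ± 3.58 RPM (SD, n = 3). Cox7c has a near-identical pseudogene copy, Gm10012, with a row of its own, which had 5, 4 and 7 reads in wild type, 22, 41 and 14 in saline mutants and 21, 32 and 3 in UNC0642 mutants, the same division at a far lower level. The part of this copy in the Cox7c values was not tested. On the deposited scale the Cox7c difference was 0.24 (SE 0.23, adjusted p = 1), and UNC0642 replicate 2 alone, which the adjustment sets with wild type while its recovered reads lie with the saline mutants, stood at 147, above the other 8 libraries, which ran from 54.7 to 73.4.

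The low isoform Cox6a2 behaved unlike its abundant partner. Its recovered reads were 42, 44 and 45 in wild type, 35, 72 and 87 in saline mutants and 99, 100 and 38 in UNC0642 mutants. Wild-type libraries were close to each other, mutant libraries were not, and UNC0642 replicates 1 and 2 were highest. Its share of the Cox6a pair ran from 0.782% in saline mutant replicate 1 to 2.29% in UNC0642 replicate 1, with 0.895% in UNC0642 replicate 3. Neither its difference between saline mutants and wild type, 0.33 (SE 0.42, adjusted p = 0.61), nor any other of its differences was called. Cox4i2, with 8 to 26 reads per library, and Ndufa4l2, with 16 to 37, were low enough that differences of the size seen in the other members were not detectable at this depth.

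**Figure D3:**
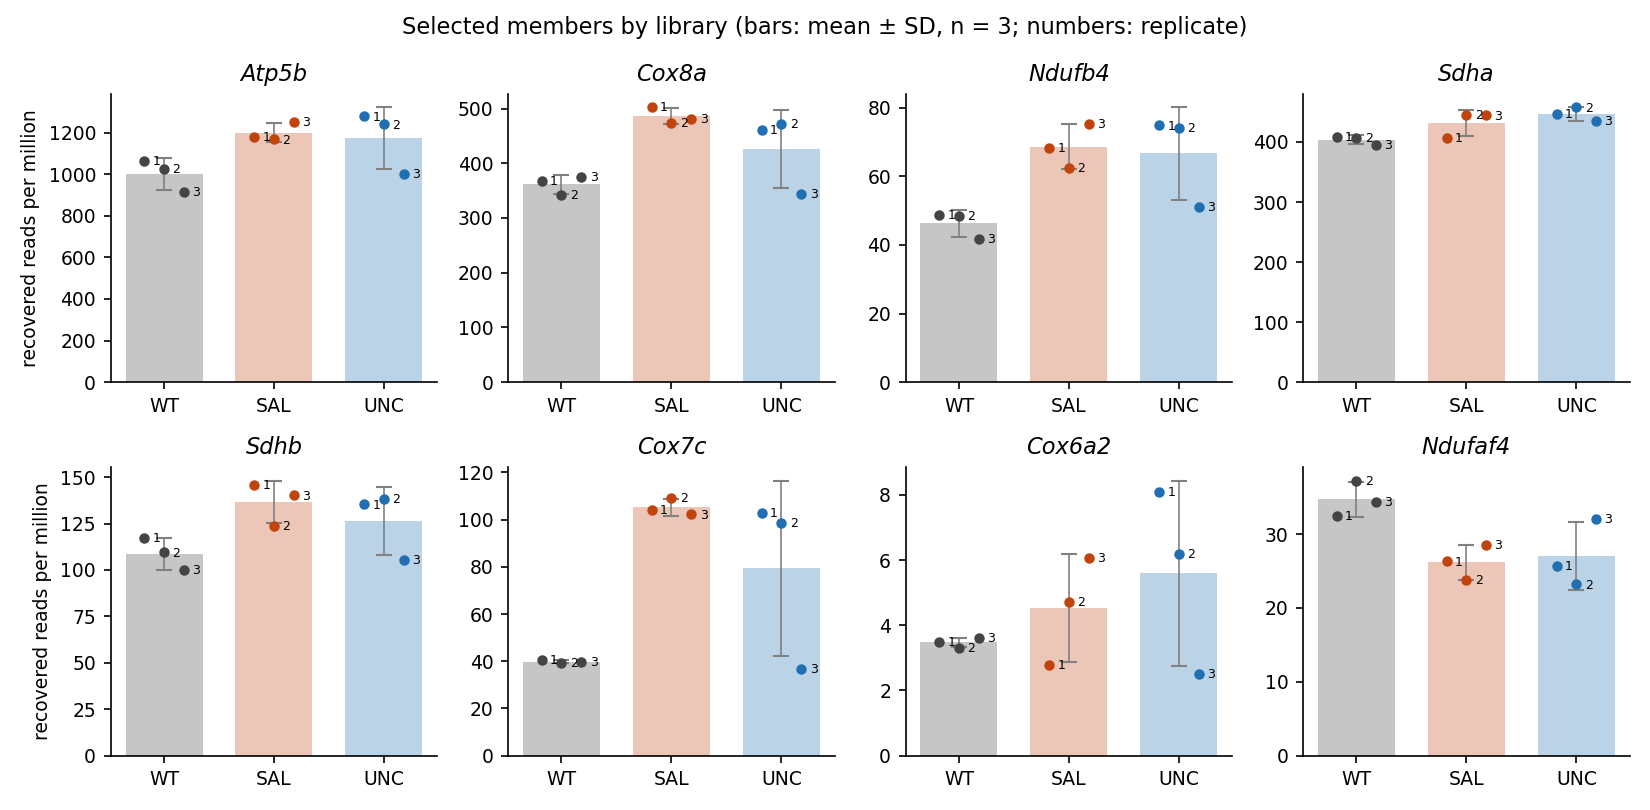
Recovered RPM of 8 members in wild-type (WT), saline mutant (SAL) and UNC0642 mutant (UNC) cortex; bars are mean ± SD of 3 libraries, points single libraries with their replicate number. For Atp5b, Cox8a, Ndufb4, Sdhb and Cox7c, UNC0642 replicate 3 lies near the wild-type libraries and replicates 1 and 2 near the saline mutants; Sdha shows little of this and Ndufaf4 shows it in the opposite direction.

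In complex V, 17 of 17 members had a positive difference in the recovered reads. Of these 6 were called higher, beside 5.13% of all genes: Atp5a1, Atp5d, Atp5g2, Atp5g3, Atp5k and Atp5o. Atp5a1, the alpha subunit of the catalytic head, had levels, in RPM, of 798, 748 and 709.5 in wild type, 925, 897 and 931 in saline mutants and 929, 923 and 788 in UNC0642 mutants and a log2 difference of 0.29 (SE 0.079, adjusted p = 0.036). Its partner Atp5b had 1065, 1024 and 916 in wild type, 1179.8, 1167 and 1252 in saline mutants and 1277, 1239 and 1003 in UNC0642 mutants, and with a log2 difference of 0.26 (SE 0.094, adjusted p = 0.077) was not called. The estimates of both subunits of the head differed by less than an SE and fell on either side of the threshold. Atp5o, part of the stalk that holds the head still, differed by 0.35 (SE 0.089, adjusted p = 0.031) and Atp5k by 0.34 (SE 0.078, adjusted p = 0.024). The 3 c-ring genes differed by 0.34 (SE 0.11, adjusted p = 0.063) for Atp5g1, 0.32 (SE 0.086, adjusted p = 0.035) for Atp5g2 and 0.33 (SE 0.10, adjusted p = 0.043) for Atp5g3. The epsilon subunit Atp5e (0.077, SE 0.081, adjusted p = 0.53) and the non-subunit genes Atp5s (0.014, SE 0.19, adjusted p = 0.97) and Atp5sl (0.074, SE 0.10, adjusted p = 0.64) gave the smallest estimates of the complex.

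The second question was whether UNC0642 changed these genes in Shank3-deficient cortex. In the deposited values 75 of 86 members were positive, with a median log2 difference of 0.056 beside 0.003 for all genes; 0 members and 0% of all genes were called, and at an unadjusted p under 0.05 the counts were 0 members and 1.95% of genes. The groups were without overlap in 0 members, beside 3.17% of all genes with UNC0642 higher and 3.06% with UNC0642 lower. This lean came with 1 library. UNC0642 replicate 2 sat on different sides in the 2 kinds of value: the deposited adjustment sets it with the wild-type libraries, and its recovered reads lie with the saline mutants, so its deposited values cannot be read as levels on their own. It had the highest deposited value of the 9 libraries for 62 of 86 members (72.1%), and for 25% of all genes, and without it the median was -0.012. In the recovered reads the same library was highest for 7 of 86 members. There the median difference was -0.078 with 73 of 86 negative, 0 members and 0% of all genes were called, and at an unadjusted p under 0.05 the counts were 4 members and 3.71% of genes. All UNC0642 libraries lay below all saline mutant libraries for 9 members, beside 3.89% of all genes: Ndufa2, Ndufb9, Ndufs3, Uqcr11, Cox4i1, Cox6b1, Cox7a2, Cox8a and Cox7a2l. They lay above in 0 members, beside 5.8%. The direction of the difference between UNC0642 and saline mutants turned between the 2 kinds of value for 64 of 86 members. When the division entered as a term, the median was 0.008, and limma-voom called 0 members and 0% of all genes, with 2 members and 3.66% of all genes at an unadjusted p under 0.05.

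A comparison within 1 side of the division sets UNC0642 replicates 1 and 2 against the saline mutants. The sides were read from these same recovered reads, so likeness of these libraries was in part built in. It also nearly repeats the fit with the division as a term, where 51 members were positive too, and is not separate evidence. There the estimates fell on both sides of 0: 51 of 86 were positive, the median was 0.009 beside 0.017 for all genes, and 0 members and 0% of all genes were called. The medians were 0.015 for complex I, 0.007 for II, -0.013 for III, -0.057 for IV and 0.010 for V. At an unadjusted p under 0.05 there were 3 members, beside 5.91% of all genes: Ndufb9, Uqcr11 and Cox6a2. Ndufb9, of the membrane arm of complex I, had recovered levels, in RPM, of 149, 144 and 153 in wild type, 174, 163 and 171 in saline mutants and 154, 148 and 146 in UNC0642 mutants and a log2 difference of -0.17 (SE 0.06, adjusted p = 0.83); its 3 UNC0642 libraries, replicate 3 included, lay below the 3 saline mutants. Uqcr11, of complex III, differed by -0.16 (SE 0.069, adjusted p = 0.83). Cox6a2 gave the largest estimate, 0.66 (SE 0.28, adjusted p = 0.83), and its saline mutant values reached up to 6.06 RPM against 6.19 and 8.09 under UNC0642.

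**Figure D4:**
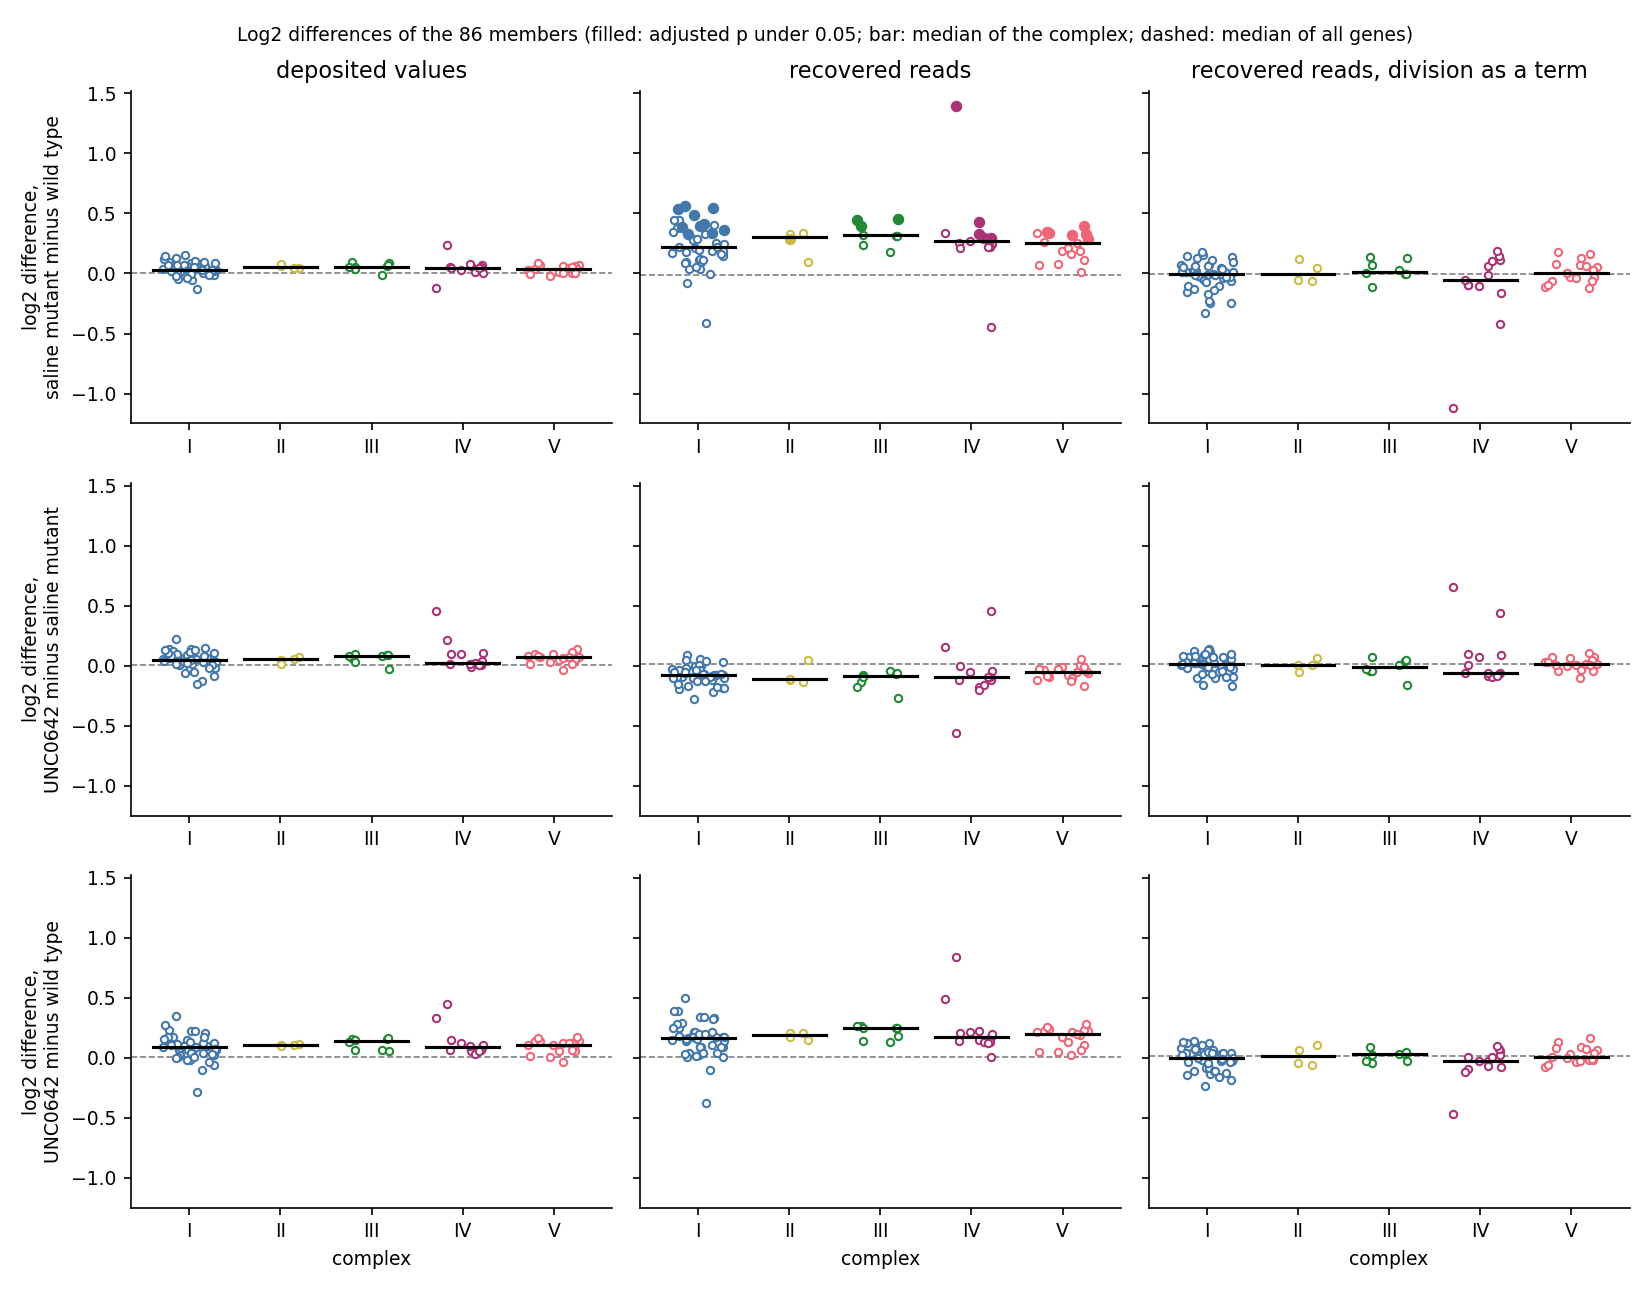
Log2 differences of the 86 members by complex, for 3 comparisons (rows) and for deposited values, recovered reads, and recovered reads with the division of the libraries as a term (columns); filled points passed an adjusted p under 0.05, bars are the median of a complex and dashed lines the median of all 14444 genes. The 25 filled points lie in 1 panel, saline mutant against wild type in recovered reads, where the complex medians run from 0.217 (complex I) to 0.319 (complex III). In the division-term column points lie around 0, apart from low-count members such as Cox6a2.

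Between UNC0642 mutants and wild type the deposited values gave the largest median difference of the 3 comparisons. Here 78 of 86 members were positive, the median was 0.10 beside 0.004 for all genes, and the complex medians were 0.093 (I), 0.106 (II), 0.141 (III), 0.094 (IV) and 0.111 (V). None was called, beside 0% of all genes; at an unadjusted p under 0.05 there were 4 members, Ndufa7, Ndufb11, Ndufb4 and Ndufaf4, beside 8.57% of all genes. Ndufb4 had deposited values of 58.5, 56.6 and 47.9 in wild type and 64.4, 86.2 and 59.3 in UNC0642 mutants, a log2 difference of 0.35 (SE 0.13, adjusted p = 0.58). Ndufaf4, the one of the 4 with a lower value, had 30.5, 34.2 and 30.8 and 28.3, 21.3 and 29.3, a log2 difference of -0.28 (SE 0.12, adjusted p = 0.58). UNC0642 libraries lay wholly above wild type for 5 members (Ndufa7, Ndufb11, Ndufb4, Sdha and Atp5k; 5.85% of all genes) and wholly below for 1 (Ndufaf4; 5.84%). Without UNC0642 replicate 2 the median was 0.030. In the recovered reads the median was 0.178 with 84 of 86 positive, and limma-voom called 0 members, beside 0.0554% of all genes, with 29 members and 19.3% of all genes at an unadjusted p under 0.05. Wholly above wild type there were 13 members, beside 9.84% of all genes, and wholly below 1, Ndufaf4, beside 7.62%. Without UNC0642 replicate 3, which removes the only library that separates genotype from the division, 50 members were called (49 higher and 1 lower) and the median was 0.261. When the division entered as a term, the median was 0.003, and limma-voom called 0 members and 0.0208% of all genes, with 0 members and 4.58% of all genes at an unadjusted p under 0.05. The 3 comparisons share their libraries, so their values are not independent.

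Genes that serve the same pathway were summarised from lists set beside the members. Of 46 assembly factors outside the symbol rule, 44 were measured; in recovered reads 3 were called higher in saline mutants than in wild type and 0 lower, with a median log2 difference of 0.156; over all genes 5.13% were called higher and 6.81% lower, so the list's count is near that of all genes. The 3 were Surf1 and Cox14, which serve complex IV, and Sdhaf4. Sdhaf4, which helps assemble complex II, had 134, 192 and 146 reads in wild type, 257, 252 and 241 in saline mutants and 196, 263 and 230 in UNC0642 mutants, a log2 difference of 0.51 (SE 0.14, adjusted p = 0.036). Atpif1, the peptide that inhibits the ATP synthase when it runs in reverse, had 1406, 1411 and 1403, 1932, 2250 and 2241 and 1887, 2473 and 1681 reads in the same order of groups and was called higher, with a log2 difference of 0.45 (SE 0.11, adjusted p = 0.029). Both rose in saline mutants by this test; in RPM, UNC0642 replicate 3 lay within the wild-type range for Atpif1 and above it for Sdhaf4. Of 18 measured electron carrier and coenzyme Q genes limma-voom called 0, with a median of 0.185 and 7 at an unadjusted p under 0.05, near the 32.3% of all genes. Of the pathway lists (assembly, carriers, Atpif1, tricarboxylic acid cycle, glycolysis and regulators), 0 genes were called by limma in the deposited values in any of the 3 comparisons, beside 0% of all genes, and at an unadjusted p under 0.05 each of these lists had at most 2 genes.

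The enzymes that feed the chain leaned the same way in part. Of 13 measured genes of the tricarboxylic acid cycle 2 were called higher in recovered reads and 0 lower, beside 5.13% and 6.81% of all genes. They were Idh3g (0.57, SE 0.16, adjusted p = 0.04) and Mdh2 (0.42, SE 0.12, adjusted p = 0.038), and the median of the 13 was 0.105. Of 16 glycolysis genes 3 were called higher, Tpi1, Gapdh (0.84, SE 0.18, adjusted p = 0.021) and Ldha (0.44, SE 0.13, adjusted p = 0.048), and 1 lower, Eno1, beside the same shares of all genes. Gapdh has many pseudogene copies, so its reads are uncertain. Eno1 had 576, 598 and 429 reads in wild type, 233, 277 and 300 in saline mutants and 274, 332 and 654 in UNC0642 mutants. A gene listed separately as Eno1b had 0, 0 and 2, 716, 890 and 804 and 706, 962 and 1, the reverse pattern. Eno1b gained more reads in saline mutants than Eno1 lost, so the lower call of Eno1 cannot be read on its own. Whether reads pass between the rows was not tested. Among 16 measured regulators of mitochondrial biogenesis, 13 had a negative and 3 a positive estimate, from -0.48 to 1.11 with a median of -0.175. Of these 0 were called higher and 2 lower, Pprc1 and Yy1, beside 6.81% of all genes called lower. The positive ones were Mterf1a, Tfam and Tfb1m. Pprc1, a coactivator related to PGC-1 alpha, was called lower (-0.42, SE 0.12, adjusted p = 0.039), while Ppargc1a, which encodes PGC-1 alpha (-0.29, SE 0.10, adjusted p = 0.065), Gabpa (-0.39, SE 0.14, adjusted p = 0.076) and Esrra (-0.22, SE 0.092, adjusted p = 0.11) had negative estimates that missed the threshold. Deposited values gave 15 of the 16 regulators a negative estimate, with a median of -0.069.

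Other groups of small housekeeping proteins showed recovered differences of like size between saline mutants and wild type, as a description of the same libraries. The median was 0.260 for the members, 0.227 for 89 cytosolic ribosomal protein genes, 0.246 for 77 mitochondrial ribosomal protein genes and 0.268 for 39 proteasome genes. Fitted with the division, these became -0.002, 0.170, -0.010 and 0.017. Transcript length moved with the differences as well: for 804 other genes with a principal transcript under 1000 nt the median was 0.222, and for 12345 other genes of 1000 nt or more it was -0.029. Among the members it was 0.287 for the 52 under 1000 nt and 0.215 for the 34 of 1000 nt or more. By promoter motif the medians were 0.318 for the 12 members with NRF1, 0.288 for the 17 with GABPA, 0.214 for the 11 with YY1 and 0.262 for the 37 with a window and no match. The part of transcript length in the result was not tested.

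Marker lists of cell types and of nuclear RNA are given as summed recovered RPM, with no measured gene of the lists at 0 reads. The 9 of 10 measured nuclear-retained long RNAs summed to 6694 to 10046 in wild type, 5789 to 6446 in saline mutants and 6204 to 7733 in UNC0642 mutants, with 7733 in UNC0642 replicate 3. The 10 of 10 oligodendrocyte markers summed to 3022 to 5019 in wild type, 1546 to 3555 in saline mutants and 2618 to 5026 in UNC0642 mutants, with 3780.4 in UNC0642 replicate 3. The 10 of 10 astrocyte markers summed to 4999.5 to 6783 in wild type, 4039.6 to 4474 in saline mutants and 3635 to 6512 in UNC0642 mutants, with 6512 in UNC0642 replicate 3. Nuclear RNAs were higher in every wild-type library than in every saline mutant library, and so were astrocyte markers; for both, the wild-type libraries and UNC0642 replicate 3 lay above the other 5. Oligodendrocyte markers did not follow that split, with UNC0642 replicate 2 highest. The 12 of 12 neuron markers, which mark the labelled cortex, summed to 12101 to 13576 in wild type, 13479.6 to 13884 in saline mutants and 12256 to 13352 in UNC0642 mutants, with 12256 in UNC0642 replicate 3. For neuron markers, wild type overlapped both mutant groups, while every UNC0642 library lay below every saline mutant library. The 10 of 10 markers of meningeal fibroblasts summed to 106 to 175 in wild type, 157 to 181 in saline mutants and 122 to 268 in UNC0642 mutants, with 268 in UNC0642 replicate 3. Of the other lists, microglia (10 of 10) reached at most 691, oligodendrocyte precursors (6 of 6) 448, endothelial and mural cells (10 of 10) 380.4, striatal neurons (8 of 10) 256 and blood cells (1 of 7) 2.57. In bulk tissue, fewer cells of a type and less RNA per cell cannot be told apart, and the part of these cells and of nuclear RNA in the members' differences was not tested.

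For 12 of the 86 members a transcript of another gene matches at least 50% of theirs at 95% identity or more, with up to 9 such copies for Atp5l, 4 for Atp5h and 3 for Uqcrb, all but 1 of those of Atp5l, and all of the others except that of Atp5o, being pseudogenes, so their reads could be split between copies and these values are uncertain. The 12 are Ndufs6, Ndufb11, Ndufs3, Uqcrb, Cox7c, Atp5g1, Atp5g2, Atp5c1, Atp5h, Atp5k, Atp5l and Atp5o; for Atp5o the match is to the neighbouring gene Donson. Of the 25 members called in recovered reads, 6 are among them, Ndufb11, Ndufs3, Cox7c, Atp5g2, Atp5k and Atp5o.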

How the data were processed

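The authors deposited 1 table of normalised signal per gene for 9 libraries, named CPM by its file but adjusted further, and per the submitters' processing notes the reads were handled with cutadapt, TopHat2 and HTSeq on mm9; no versions are named in the sources at hand. The kit was stranded, with ribosomal RNA depleted, per the labels' protocols. Because the deposited signal carries the adjustment described above, whole read counts were recovered from it. The prior was 3.0000 reads, the tolerance 0.02 reads and the largest distance 0.00023 reads. Values were rebuilt to 1.2e-08 on the log2 scale. The same steps were run on simulated data built with the same construction, where 100% of 1981 genes came back exactly. That run checks the solving steps under this construction, not the construction itself.

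The main test was limma 3.58.1 with trend (R 4.3.3) on log2(deposited value + 0.5), over all 9 libraries with group as the only term, so a fold change is on that scale and understates the change of low genes. p-values were adjusted by Benjamini-Hochberg over 14444 genes and called under 0.05. Recovered counts were tested with limma-voom, also with the division of the libraries as a term, and within 1 side of it. Transcript lengths came from GENCODE for GRCm38 and copies from blastn 2.17.0; the mm9 genome was not used here. Genes named were, in each complex, those of highest and lowest level and those of smallest p in each comparison, isoform families and all Sdh genes, and per pathway list those of smallest p; others named were chosen after their values were seen. Members and lists were chosen with earlier results of these data known. No likeness between members over libraries is given, since the libraries fall into separate sets. Precision rests on 3 libraries a group and 12035098 to 16165483 recovered counts per library.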

Additional observations from a re-analysis of the deposited data

How the results depend on the processing

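In the deposited values 0 members were called in the 3 comparisons under the main settings and under pseudocounts of 0.1 and 1, upper-quartile or median-of-ratios factors, a minimum value of 1 in 3 libraries, fits of only the groups compared, and each library left out in turn; the median over the members stayed at 0.010 to 0.092 for saline mutants against wild type, -0.012 to 0.106 for UNC0642 against saline mutants and 0.030 to 0.146 for UNC0642 mutants against wild type when a library was left out. With the replicate number as a block, 0 members were called and the medians were 0.046, 0.056 and 0.10. After group means were taken off, libraries with the same number correlated between -0.19 and 0.307. Those with different numbers correlated between -0.255 and 0.268. These come from the adjusted deposited values, so they cannot tell whether the numbers pair the libraries. In recovered reads, saline mutants against wild type gave 25 members called and a median of 0.260; leaving out each library, an alternative chosen after seeing the data, gave, without UNC0642 replicates 1, 2 and 3, 31, 24 and 54 called, without wild-type replicates 1, 2 and 3, 24, 0 and 1, and without any 1 saline mutant library 0, with medians of 0.251, 0.254, 0.259, 0.260, 0.268, 0.284 and 0.297. UNC0642 against saline mutants gave -0.078, and with a library left out -0.129 and -0.113 (UNC0642 replicates 1 and 2), 0.008 (UNC0642 replicate 3), and -0.069, -0.116 and -0.055 (saline mutant replicates 1, 2 and 3). UNC0642 mutants against wild type gave 0.003 with the division as a term. Without a library 0 to 50 members were called, beside 1 to 2959 of all genes, with medians of 0.129 to 0.261 (0.194 without wild-type replicate 1). The cause of these shifts was not tested. Of 111 differences of the 37 members chosen by the naming rule, 15 passed the threshold in recovered reads and 0 in any deposited setting, and no call reversed. Every setting of the deposited values keeps their adjustment. Depth limits Cox4i2, Ndufa4l2 and Cox6a2, the members of fewest reads.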
